A study of Mus musculus with 11 samples.

Results

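A set of 9 genes that the nuclear receptor PPARA switches on in mouse liver was followed across all 11 arrays: Ehhadh, Acaa1a, Acaa1b, Hsd17b4, Crot, Acot1, Pex11a, Cyp4a14 and Cyp4a10. Probe sets were taken by gene symbol in the platform annotation, which gave 15 of the 22690 probe sets. Of these, 11 carried 1 symbol and 4 were shared by 2 genes each. Of the 9 genes, 8 had a probe set of their own, and all 8 lay above the brightness limit for testing. Cyp4a10 was measured only by a probe set shared with Cyp4a31. Liver RNA came from male mice of a mixed background, 1 array per mouse, all given doxycycline for 3 weeks, and the comparisons ask how the liver differs with muscle hypertrophy and with diet. The groups were Akt1 double transgenic mice (DTG, muscle hypertrophy marked +) on the high-fat diet (DH, 4 arrays), wild-type mice on the high-fat diet (CH, 4 arrays) and wild-type mice on the normal diet (CN, 3 arrays). The wild-type mice thus received the inducer as well, no transgenic mice on the normal diet were analysed here, and the labels give neither the ages nor the elements that drive the transgene. Each value is a MAS5 signal, a linear brightness per probe set, and the tests used log2 signal.

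PPARA is a fatty acid-activated receptor that binds DNA together with RXR, and in rodent liver it is known for raising fatty acid oxidation during fasting and under fibrate drugs. Peroxisomes shorten very long chain fatty acids by beta-oxidation and pass the shortened acyl chains on to mitochondria as carnitine esters. Microsomal cytochromes of the Cyp4a family hydroxylate the far end of fatty acids, which yields dicarboxylic acids that peroxisomes then shorten.

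The arrays were scaled alike, with a trimmed mean signal of 500.251 to 500.285. Transgenic array 3 stood apart in quality measures. Its mean poly-A spike signal was 126, against 309.3 to 526 on the other arrays, and its Gapdh 3'/5' ratio was 0.823, against 0.669 to 0.768. Transgenic arrays 3 and 4 also had the highest top signals, 42425.5 and 43272.9, against 27779.5 to 35450.1 on the others. Hepatocyte markers were bright on every array, and all 8 skeletal muscle, all 7 neutrophil and all 3 adipocyte markers measured lay under the brightness limit. The replicates were separate mice, and the p-values rest on the spread between them, pooled over all 3 groups. The errors and intervals for diet thus also hold the spread of the transgenic mice.

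None of the 8 separately measured genes differed between groups in limma's test, while several of them differed many-fold between mice of 1 group. Cyp4a14, a microsomal omega-hydroxylase, ranged from a signal of 248.2 to 20224 among the 4 transgenic mice, an 81.5-fold span. Acot1, a cytosolic acyl-CoA thioesterase, spanned 14.8-fold in transgenic mice, 5.75-fold in wild-type mice on the high-fat diet and 3.59-fold on the normal diet. Transgenic array 2 had the lowest transgenic signal for 7 of the 8 genes, and transgenic array 3 had the highest for the same 7. In liver RNA, fewer hepatocytes and less RNA per hepatocyte cannot be told apart.

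At an adjusted p under 0.05, 0 of 8 genes passed for transgenic against wild-type mice on the high-fat diet, where 0.366% of the 7924 genes tested passed. The count was 0 of 8 for the high-fat against the normal diet in wild-type mice, where 0% of genes passed. It was 0 of 8 between transgenic and normal-diet mice, where 2.08% passed. At an unadjusted limma p under 0.05 the count was also 0 of 8 in each comparison, against 13.7%, 7.02% and 18.3% of all genes. For none of the 8 genes were the arrays of the groups without overlap. Over all genes, 4.32% were higher and 4.09% lower without overlap in the transgenic comparison, 4.58% and 3.33% for diet, and 8.46% and 7.10% when transgenic mice were set against the normal diet. The difference lay above 0 for 5, 4 and 3 of the 8 genes in the order of comparisons above, against 50.2%, 51.1% and 50.6% of all genes. The median log2 difference over the 8 genes was 0.012 for transgenic against wild-type mice on the high-fat diet (all genes 0.0010). It was 0.015 for diet (all genes 0.0067) and -0.063 between transgenic and normal-diet mice (all genes 0.0041). Confidence intervals were wide for the most variable genes, and a missed threshold does not show that the groups were alike.

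**Figure D1:**
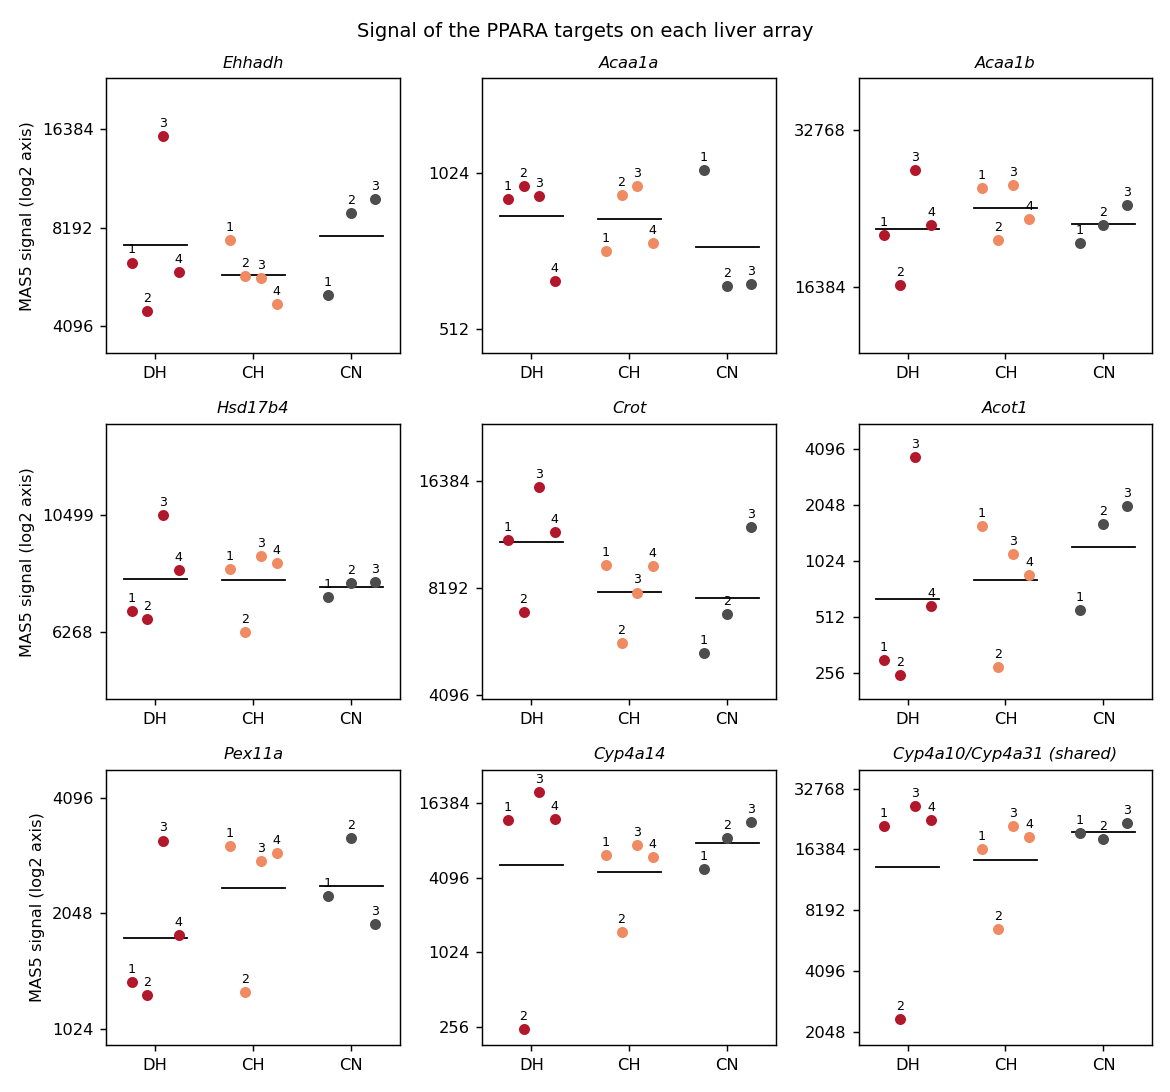
MAS5 signal (log2 axis, scale set per panel) of 8 genes and of the probe set shared by Cyp4a10 and Cyp4a31 on each array, by group (DH, transgenic on the high-fat diet; CH, wild type on the high-fat diet; CN, wild type on the normal diet). Points are mice with their array number and bars are group means of log2 signal. The groups overlap in every panel, and transgenic array 2 and wild-type high-fat array 2 lie far under their groups for Cyp4a14.

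RefSeq promoter windows (GRCm38.p6, 250 bases before to 50 after the annotated start) were matched by symbol for 6 of the 9 genes. The binding element of PPARA and RXR, 2 copies of AGGTCA with 1 base of any kind between them, was searched on both strands. It occurred exactly in 0.0396% of all 32851 windows and in none of the 6, whose closest stretch differed at 4 or 5 of the 12 fixed letters. Within 4 differences, 79.8% of all windows held such a stretch. Its core AGGTCA occurred in 16.3% of all windows and in 0 of the 6. No match says only that these letters are not in these windows. The letters CCAAT, noticed after the sequences were seen and searched on both strands, occurred in 5 of the 6 and in 37.4% of all windows. The windows of the most and least variable genes with a sequence, Acot1 and Acaa1b, and of Ehhadh are shown to let their promoters be compared, 5′ to 3′ on the gene's strand, with CCAAT or its reverse complement ATTGG in capitals.
Acot1 (chr12:84009252-84009551, plus strand): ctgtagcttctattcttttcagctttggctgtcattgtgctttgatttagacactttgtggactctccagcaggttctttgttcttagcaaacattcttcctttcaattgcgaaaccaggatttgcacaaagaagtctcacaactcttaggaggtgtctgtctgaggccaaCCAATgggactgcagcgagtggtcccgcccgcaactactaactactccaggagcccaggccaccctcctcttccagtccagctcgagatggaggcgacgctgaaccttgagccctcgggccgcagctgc
Ehhadh (chr16:21787785-21788084, minus strand): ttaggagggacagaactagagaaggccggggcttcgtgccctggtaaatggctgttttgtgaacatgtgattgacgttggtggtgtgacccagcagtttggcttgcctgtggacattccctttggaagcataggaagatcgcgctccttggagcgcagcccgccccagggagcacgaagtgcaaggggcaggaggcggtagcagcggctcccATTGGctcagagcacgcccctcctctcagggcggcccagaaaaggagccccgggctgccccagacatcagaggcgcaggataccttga
Acaa1b (chr9:119157044-119157343, minus strand): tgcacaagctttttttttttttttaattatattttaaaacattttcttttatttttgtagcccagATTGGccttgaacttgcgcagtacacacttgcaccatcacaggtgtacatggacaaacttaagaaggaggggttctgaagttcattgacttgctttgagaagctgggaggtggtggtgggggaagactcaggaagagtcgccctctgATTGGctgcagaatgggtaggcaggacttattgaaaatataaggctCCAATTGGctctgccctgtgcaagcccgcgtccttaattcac
Acot1 and Ehhadh each hold the motif at 1 place, and Acaa1b holds it at 4, of which 2 overlap.

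The peroxisomal beta-oxidation enzymes overlapped between groups, and Ehhadh varied most among them. Ehhadh (1448382_at), the bifunctional enzyme that hydrates and then dehydrogenates straight-chain enoyl-CoA, had signals of 6406, 4567, 15593 and 5991 on transgenic arrays 1 to 4. It had 7509, 5821, 5754 and 4771 on wild-type high-fat arrays 1 to 4, and 5082, 9068 and 10023 on normal-diet arrays 1 to 3. Transgenic array 3 was the highest of all 11, and the other 3 transgenic values lay within or just under the wild-type high-fat range. The log2 difference between transgenic and wild-type mice on the high-fat diet was 0.30 ± 0.33 (SE; 95% interval -0.43 to 1.02, limma adjusted p = 0.728). Without transgenic array 3 it was -0.073 (limma adjusted p = 0.935), and without transgenic array 2 it was 0.52 (limma adjusted p = 0.516). The diet difference was -0.39 ± 0.36 (SE; limma adjusted p = 0.888), and 4 of 4 high-fat arrays lay under the normal-diet median. It was -0.70 without normal-diet array 1 and -0.21 without normal-diet array 3. With only the wild-type groups fitted, the limma unadjusted p for diet was 0.131 (adjusted p = 0.752), against 0.294 with all 3 groups.

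Hsd17b4, the other bifunctional enzyme, which also serves branched-chain and bile acid intermediates, varied less than Ehhadh. Its brighter probe set (1417369_at) had 6869.6, 6632, 10499 and 8241 in transgenic mice, 8269, 6268.5, 8778 and 8517 in wild-type high-fat mice, and 7297, 7789 and 7811 on the normal diet. Means were 8060.3 ± 1774 (SD, n = 4), 7958 ± 1146 (SD, n = 4) and 7632 ± 290.4 (SD, n = 3). Transgenic array 3 was again the highest and wild-type high-fat array 2 the lowest. The log2 difference was 0.0061 ± 0.15 (SE; 95% interval -0.32 to 0.33, limma adjusted p = 0.990) for transgenic against wild-type mice on the high-fat diet. It was 0.049 ± 0.16 (SE; limma adjusted p = 0.964) for diet. The other probe set (1455777_x_at) gave -0.089 and -0.053 for the same comparisons.

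Acaa1a and Acaa1b encode the thiolases that cleave the last bond of a peroxisomal beta-oxidation round. They lie close together on chromosome 9, and 2 of their 5 probe sets cannot tell them apart. Acaa1b (1424451_at) had 20662, 16546, 27429.6 and 21527 in transgenic mice, 25415, 20233, 25735 and 22171 in wild-type high-fat mice, and 19900, 21594.5 and 23524 on the normal diet. Its lowest and highest values both lay in the transgenic group, on arrays 2 and 3. The log2 difference was -0.13 ± 0.14 (SE; 95% interval -0.44 to 0.17, limma adjusted p = 0.709) for transgenic against wild-type mice on the high-fat diet and 0.11 ± 0.15 (SE; limma adjusted p = 0.940) for diet. Under quantile normalization the transgenic difference was -0.27 (limma unadjusted p = 0.0391, adjusted p = 0.328), and with 1 array left out it lay between -0.26 (without transgenic array 3) and -0.016 (without transgenic array 2). Between transgenic and normal-diet mice Acaa1b was at -0.029 ± 0.15 (SE; limma adjusted p = 0.942), and at -0.27 (limma adjusted p = 0.281) under quantile normalization.

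The shared Acaa1 probe set 1416946_a_at had the smallest unadjusted p of the 15 for the transgenic comparison, with means of 10240.2 ± 2008 in transgenic and 12928 ± 1991 in wild-type high-fat mice (SD, n = 4 each). Its log2 difference was -0.34 ± 0.15 (SE; limma adjusted p = 0.337 over 12974 probe sets). The other shared set, 1416947_s_at, gave -0.10 ± 0.12 (SE; limma adjusted p = 0.754). Acaa1a alone was read by 2 probe sets that ordered the arrays differently. The first (1456737_x_at) had 911.7, 965.6, 922.9 and 634.9 in transgenic mice, 724, 929.1, 967.7 and 752.1 in wild-type high-fat mice, and 1039, 621.4 and 625.6 on the normal diet. Here transgenic array 2 was the highest of its group and array 4 the lowest. The log2 difference was 0.019 ± 0.19 (SE; limma adjusted p = 0.977) for the transgenic comparison, against 0.19 ± 0.22 (SE; limma adjusted p = 0.765) at the second set (1456011_x_at).

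Crot, the carnitine octanoyltransferase that readies shortened acyl chains for export from the peroxisome, had 11183, 7009.8, 15787 and 11797 on transgenic arrays 1 to 4 (1450966_at). It had 9487, 5722, 7942 and 9419.5 in wild-type high-fat mice, and 5368, 6890.3 and 12169 on the normal diet. The transgenic values of arrays 1, 3 and 4 lay above all 4 wild-type high-fat values, and array 2 lay among them. Means were 11444 ± 3592.5 in transgenic and 8143 ± 1764 in wild-type high-fat mice (SD, n = 4 each), a log2 difference of 0.46 ± 0.28 (SE; 95% interval -0.15 to 1.07, limma adjusted p = 0.503). Without transgenic array 2 the difference was 0.68 (limma adjusted p = 0.289), without transgenic array 3 it was 0.29 (limma adjusted p = 0.734), and without transgenic arrays 3 and 4 it was 0.15 (limma adjusted p = 0.905). For diet it was 0.059 ± 0.30 (SE; limma adjusted p = 0.976).

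Acot1, which frees fatty acids from their CoA esters in the cytosol, had 302.8, 251.5, 3727 and 590.5 on transgenic arrays 1 to 4 (1449065_at). It had 1586, 275.7, 1128 and 868.5 in wild-type high-fat mice, and 563.3, 1619 and 2023 on the normal diet. A single transgenic mouse held the highest value of all 11, while the other 3 lay in or under the lower part of the wild-type high-fat range. The transgenic difference was -0.34 ± 0.79 (log2, SE; 95% interval -2.06 to 1.39, limma adjusted p = 0.887), and it was -1.19 without transgenic array 3 (limma adjusted p = 0.461) and 0.11 without transgenic array 2 (limma adjusted p = 0.969). For diet it was -0.60 ± 0.86 (SE; limma adjusted p = 0.940) with all 4 high-fat values under the normal-diet median, -1.16 without normal-diet array 1 and -0.082 without wild-type high-fat array 2. The probe set shared by Acot1 and its mitochondrial relative Acot2 had the same array order within each group.

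Pex11a, which elongates peroxisomes before they divide, had 1357, 1259, 3168 and 1796 in transgenic mice at its brighter probe set (1449442_at). It had 3065, 1278, 2808 and 2944 in wild-type high-fat mice, and 2276, 3220.2 and 1923 on the normal diet. Transgenic array 3 lay above all 4 wild-type high-fat values, the other 3 transgenic values lay under wild-type arrays 1, 3 and 4, and wild-type array 2 lay among the low transgenic values. The transgenic difference was -0.43 ± 0.33 (log2, SE; 95% interval -1.15 to 0.28, limma adjusted p = 0.587), and with 1 array left out it lay between -0.73 (without wild-type high-fat array 2; limma adjusted p = 0.252) and -0.27 (without transgenic array 2; limma adjusted p = 0.770). Without transgenic array 3 it was -0.72 (limma adjusted p = 0.377). The dimmer probe set (1419365_at) gave -0.48 ± 0.30 (SE; limma adjusted p = 0.526). For diet the brighter set gave -0.018 ± 0.35 (SE; limma adjusted p = 0.991).

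Cyp4a14 (1423257_at) had 12001, 248.2, 20224 and 12214 on transgenic arrays 1 to 4. It had 6273, 1503, 7472 and 6036 in wild-type high-fat mice, and 4858, 8599 and 11511 on the normal diet. Transgenic arrays 1, 3 and 4 lay above every array of both wild-type groups, and transgenic array 2 lay under every one. Means were 11172 ± 8227 in transgenic, 5321 ± 2621.5 in wild-type high-fat (SD, n = 4 each) and 8323 ± 3335 in normal-diet mice (SD, n = 3). The log2 difference between transgenic and wild-type mice on the high-fat diet was 0.20 ± 1.12 (SE; 95% interval -2.25 to 2.64, limma adjusted p = 0.955). Without transgenic array 2 it was 1.66 (limma adjusted p = 0.209), without transgenic array 3 it was -0.45 (0.918) and without wild-type high-fat array 2 it was -0.33 (0.924). The diet difference was -0.79 ± 1.21 (SE; limma adjusted p = 0.941), with 4 of 4 high-fat arrays under the normal-diet median, and -0.26 without wild-type high-fat array 2. With only the wild-type groups fitted, its limma unadjusted p was 0.174 (adjusted p = 0.769), against 0.529 with all 3 groups.

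Cyp4a10, another omega-hydroxylase that neighbours Cyp4a14 on chromosome 4, could be followed only with Cyp4a31. Their shared probe set (1424853_s_at) had 21479, 2380.3, 27039 and 23023 in transgenic mice, 16509.6, 6614.5, 21358 and 18837 in wild-type high-fat mice, and 19868, 18494 and 22085 on the normal diet. As for Cyp4a14, array 2 was the lowest in both high-fat groups, and transgenic array 3 was the highest of all. The 3 normal-diet values lay close together, with a span of 1.19-fold, against 11.4-fold in transgenic and 3.23-fold in wild-type high-fat mice. The log2 difference was -0.12 ± 0.65 (SE; limma adjusted p = 0.956 over 12974 probe sets) for the transgenic comparison and -0.47 ± 0.70 (SE; limma adjusted p = 0.943) for diet. A probe set for Cyp4a31 alone had 164.2, 35.5, 237.7 and 234.1 in transgenic mice, 58.7, 34.7, 89.7 and 86.1 in wild-type high-fat mice, and 218.1, 164.9 and 143.8 on the normal diet. It too was lowest on array 2 of both high-fat groups, though some of its values lay under the brightness limit of about 53.

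**Figure D2:**
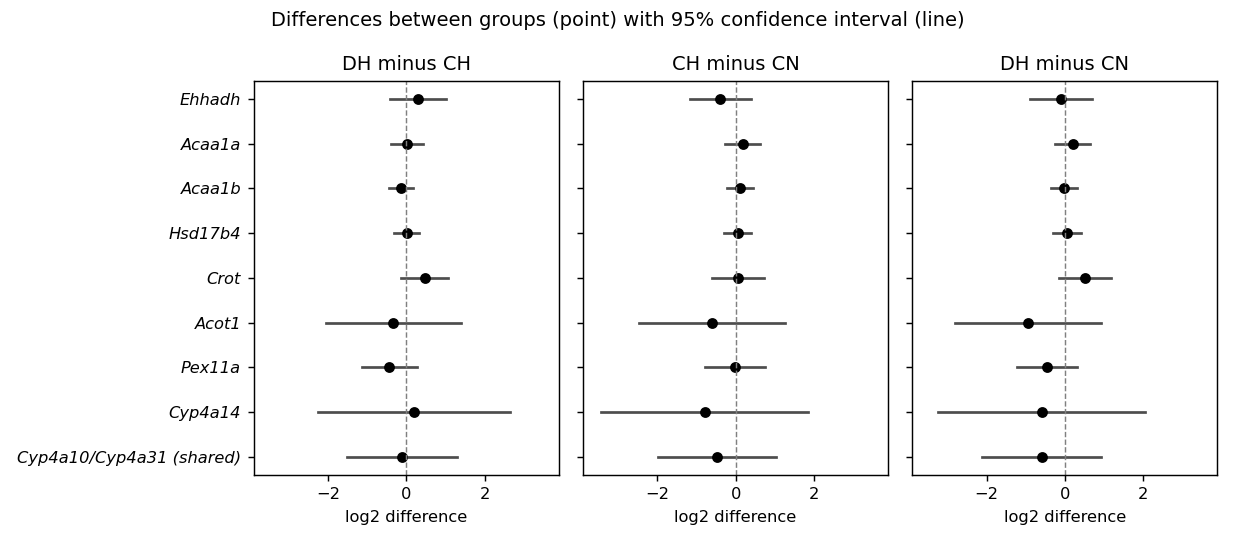
Log2 differences (points) with 95% confidence intervals (lines) from limma for 8 genes and the probe set shared by Cyp4a10 and Cyp4a31, for DH minus CH, CH minus CN and DH minus CN. Every interval shown crosses 0. The widest are those of Cyp4a14, Acot1 and the shared Cyp4a10 set, and the narrowest those of Acaa1b and Hsd17b4.

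Set directly against wild-type mice on the normal diet, the transgenic mice showed log2 differences from -0.94 (Acot1) to 0.52 (Crot). Crot was at 0.52 ± 0.30 (SE; limma adjusted p = 0.393), with all 4 transgenic values above the normal-diet median of 6890.3. Acot1 was at -0.94 ± 0.86 (SE; limma adjusted p = 0.602), Cyp4a14 at -0.59 ± 1.21 (SE; 0.835) and Pex11a at -0.45 ± 0.35 (SE; 0.532). With 1 array left out, Crot lay between 0.26 (without normal-diet array 1) and 0.85 (without normal-diet array 3), and Acot1 between -1.79 (without transgenic array 3) and -0.49 (without transgenic array 2). Pex11a lay between -0.73 (without transgenic array 3) and -0.24 (without normal-diet array 2), and Cyp4a14 between -1.24 (without transgenic array 3) and 0.87 (without transgenic array 2). This comparison shares its transgenic arrays with the transgenic comparison and its normal-diet arrays with the diet comparison, so the 3 sets of values are not independent.

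The spread between mice of 1 group was then set against that of all genes. Over all 7924 genes the median within-group SD was 0.24 (log2), and over the 8 genes it was 0.51. Cyp4a14 had an SD of 1.95, the 10th largest of all genes, and Acot1 had 1.37, the 39th largest. Ehhadh (0.56), Pex11a (0.56) and Crot (0.47) were exceeded by 9.06%, 9.46% and 14.4% of genes. Against all genes, dim ones included, the thiolases and Hsd17b4 were ordinary. Their SDs were 0.30 for Acaa1a, 0.22 for Acaa1b and 0.23 for Hsd17b4, exceeded by 36.4%, 58.5% and 53.4% of genes. Bright probe sets vary less on these arrays. The 2341 genes at least as bright as the dimmest of the 8 had a median SD of 0.17 and a 90th percentile of 0.38, which 5 of the 8 genes exceeded. The thiolases and Hsd17b4 lay between that median and that percentile.

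**Figure D3:**
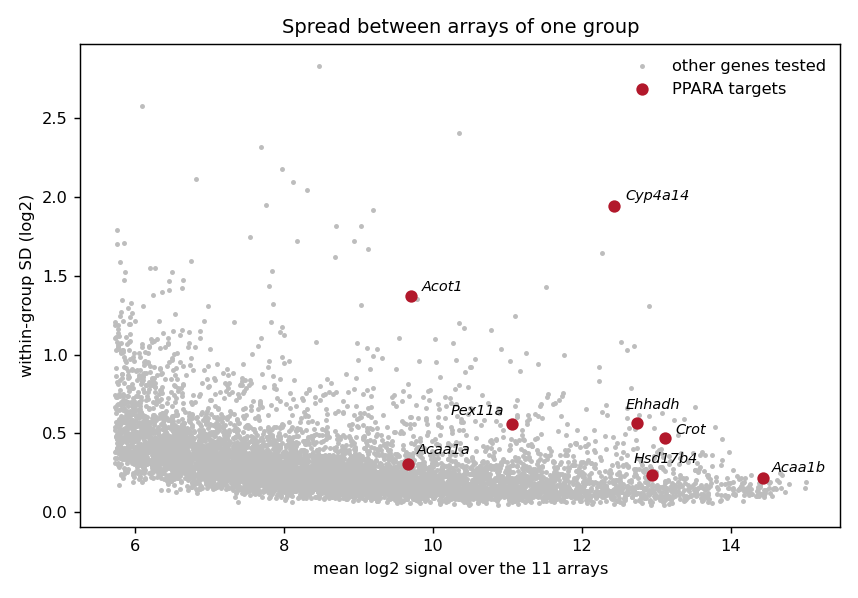
Within-group SD of log2 signal (vertical axis) against mean log2 signal over the 11 arrays (horizontal axis) for 7924 genes, with the 8 PPARA targets in red. Cyp4a14 (SD 1.95) and Acot1 (1.37) lie far above other genes of their brightness, and Acaa1b (0.22) and Hsd17b4 (0.23) lie near the bulk.

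The mice that were low or high were largely the same from gene to gene. Transgenic array 2 was the lowest of its group for Ehhadh, Acaa1b, Hsd17b4, Cyp4a14, Acot1, Pex11a and Crot, 7 of 8 genes, while it was the lowest for 22.0% of all genes. Transgenic array 3 was the highest for those 7, against 25.7% of all genes. Among wild-type mice on the high-fat diet, array 2 was the lowest for 6 of 8 genes (27.3% of all genes) and the highest for none. Among normal-diet mice, array 1 was the lowest and array 3 the highest for 6 of 8 genes (29.9% and 30.6% of all genes). At its brighter probe set, Acaa1a departed from these orders in all 3 groups. Ehhadh departed in the wild-type high-fat group and Pex11a in the normal-diet group. The other Acaa1a set (1456011_x_at) had transgenic array 1 the lowest (526) and array 3 the highest (1153). On the normal diet this set had array 1 the lowest (653.5) and array 3 the highest (908.4). These orders are those of the brightest probe set of each gene. Over all 15 probe sets, transgenic array 2 was the lowest for 11 and transgenic array 3 the highest for 14. Wild-type high-fat array 2 was the lowest for 12. Normal-diet array 1 was the lowest for 10 and array 3 the highest for 10. The other sets of Hsd17b4 and Pex11a were lowest on transgenic array 1, and that of Hsd17b4 also on normal-diet array 3. The low and high arrays were singled out after their values were seen, and the shares are a description. The shares are over all genes, dim ones included, and were not taken among genes as bright as the 8. The orders were taken on MAS5 signal and not under quantile normalization. The part of the high signals at the bright end of transgenic array 3 in its order was not tested.

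**Figure D4:**
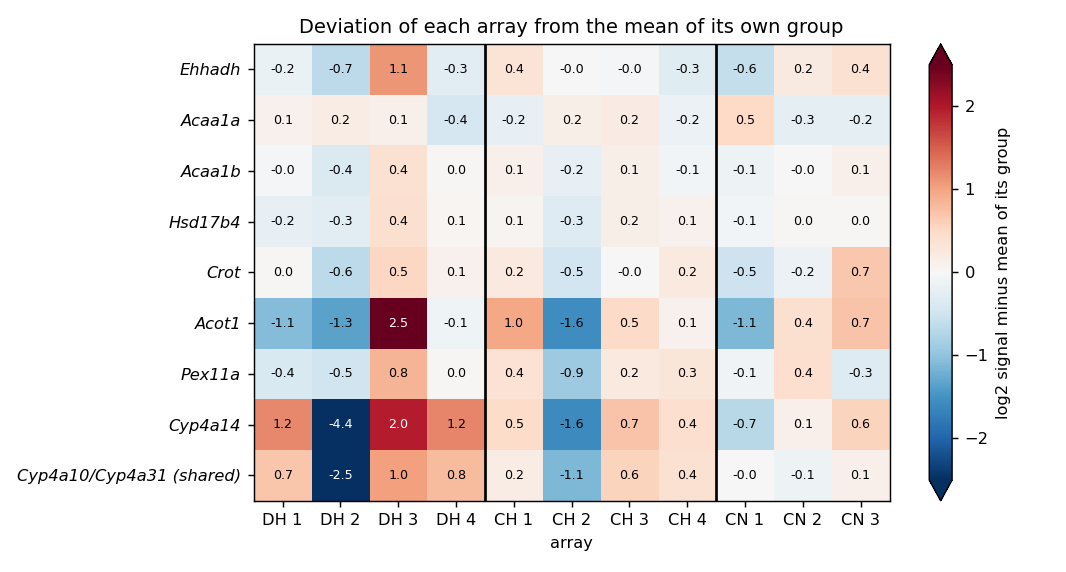
Log2 signal of each array minus the mean of its own group, for 8 genes and the probe set shared by Cyp4a10 and Cyp4a31 (rows), by array (columns; DH, CH, CN). Colours stop at 2.5 and printed values do not. Transgenic array 2 is blue and array 3 red in every row except that of Acaa1a, where both deviate little, and wild-type high-fat array 2 is blue for Cyp4a14, Acot1, Pex11a and Crot.

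Averaged over the 8 genes as log2 signal minus the normal-diet mean, the level was -0.23, -1.16, 0.82 and -0.088 on transgenic arrays 1 to 4. It was 0.12, -0.79, 0.062 and -0.096 on wild-type high-fat arrays 1 to 4, and -0.34, 0.10 and 0.24 on normal-diet arrays 1 to 3. The lowest level in each high-fat group was that of array 2. Over all genes the same average stayed between -0.030 and 0.085 on every array.

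Macrophage markers were high on the arrays where most of the 8 genes were low. Of the 14 Kupffer cell and macrophage markers listed, 13 were on the array, 12 of them above the brightness limit, and none was at 0 on any array. Their summed signal was 10429, 16579, 6124 and 11125 on transgenic arrays 1 to 4, 7948, 12177, 4845 and 6935 on wild-type high-fat arrays 1 to 4, and 6554, 3529 and 4654 on normal-diet arrays 1 to 3. Transgenic array 2, wild-type high-fat array 2 and normal-diet array 1, each the lowest of its group for most of the 8 genes, each had the highest signal for 12 of the 13 markers. Transgenic array 3, the highest for 7 of the 8 genes, had the lowest signal for 11 of the 13. The same did not hold on the normal diet, where array 3 was the highest for 6 of the 8 genes but the lowest for 1 of the 13 markers, and array 2 was the lowest for 11. Among wild-type mice on the high-fat diet, array 3 was the lowest for 11 markers, and it and array 1 were each the highest for 4 genes. Clec4f, a Kupffer cell lectin taken as a defining marker, had 1143, 1899, 563.2 and 1118 in transgenic mice, 899.7, 1173, 644.1 and 710.8 in wild-type high-fat mice, and 942.3, 371.3 and 581.4 on the normal diet. The hepatocyte markers summed to 172370 on transgenic array 2 and 224180 on array 3, against 168170 and 222650 on arrays 1 and 4. The sums were 175600, 161130, 173170 and 169030 on wild-type high-fat arrays 1 to 4, where array 2 was the lowest. On normal-diet arrays 1 to 3 they were 172030, 147780 and 165210, where array 1 was the highest. The part of macrophage content, and of the low spike signal on transgenic array 3, in the levels of the 8 genes was not tested.

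**Figure D5:**
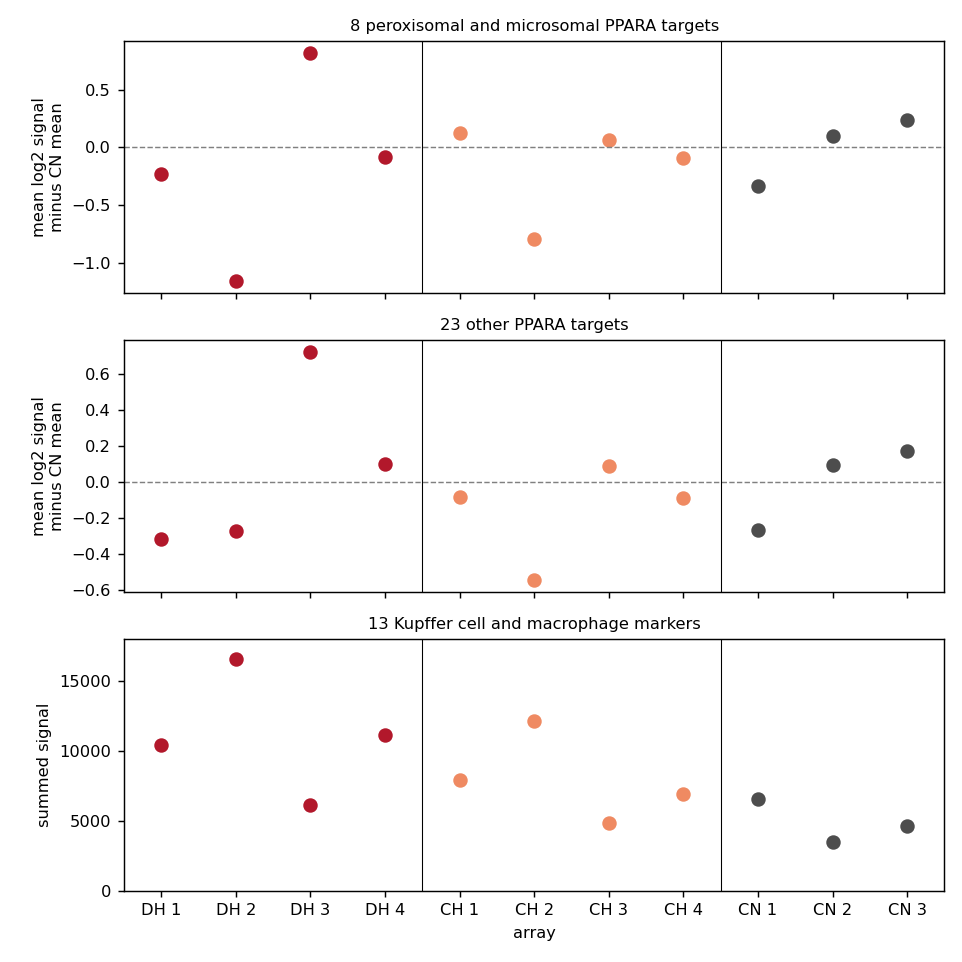
For each array (horizontal axis; DH, CH, CN), the mean log2 signal minus the normal-diet mean of the 8 PPARA targets (top) and of 23 other PPARA targets (middle), and the summed signal of 13 Kupffer cell and macrophage markers (bottom). Transgenic array 3 is the highest in the upper panels (0.82 and 0.72) and the lowest of its group in the bottom panel (6124). Wild-type high-fat array 2 is the lowest of its group in the upper panels (-0.79 and -0.55) and the highest of its group in the bottom panel (12177). Transgenic array 2, the highest in the bottom panel (16579), is the lowest in the top panel (-1.16). In the middle panel the lowest transgenic array is array 1 (-0.32), under array 2 (-0.27).

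The genes whose pattern over the 11 arrays was most like the mean of the 8 standardised profiles were then taken. Outside the 8, the most alike were Eci1 (Pearson's r = 0.946), a mitochondrial enoyl-CoA isomerase, Cpt2 (0.936), the inner carnitine palmitoyltransferase, Dhrs4 (0.927), a carbonyl reductase found in peroxisomes, Chrna2 (0.920), a subunit of a nicotinic receptor, Acot8 (0.920), the peroxisomal thioesterase, and Dusp6 (0.916), a phosphatase of ERK kinases. With transgenic arrays 2 and 3 left out, the values were 0.801, 0.812, 0.796, 0.782, 0.90 and 0.908 in the same order. The arrays share one scaling and the groups, and these correlations are descriptions. Eci1 had 3229, 2487, 7012 and 4521 in transgenic mice, 4009, 2735, 4112 and 3652 in wild-type high-fat mice, and 3575, 4292 and 4214 on the normal diet. It thus had the same lowest and highest transgenic mice as Ehhadh, Crot and Acot1. Cpt2 had 2046, 1909, 3911 and 2336 in transgenic mice, 2893, 2052, 2623 and 2729 in wild-type high-fat mice, and 2388.5, 2899 and 2685 on the normal diet.

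Likeness to Cyp4a14 alone gave other genes, led by Bik (r = 0.938), which encodes a protein that promotes cell death, Creld1 (0.909), Nek4 (0.902), Itfg1 (0.899), the proteasome subunit Psmb6 (0.891) and the cytochrome Cyp2c54 (0.887). Without array 2 of both high-fat groups these lay between -0.242 (Cyp2c54) and 0.782 (Nek4). Of the other 7 genes, Crot and Ehhadh had 0.628 and 0.604 over all arrays, and 0.846 and 0.747 without those mice. Acaa1b, Hsd17b4, Acot1 and Pex11a had 0.764, 0.660, 0.659 and 0.557 over all arrays, and 0.375, 0.421, 0.340 and -0.240 without those mice. Acaa1a had -0.397 and -0.139.

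Other genes of the pathway were taken from 5 lists. Of 34 other peroxisomal enzymes listed, 27 were measured. Of these, 0 passed for transgenic against wild-type mice on the high-fat diet and 0 for diet, with median log2 differences of -0.034 and 0.019. Against the normal diet 1 was higher in transgenic mice (1.40% of all genes were called higher). This was Amacr, the racemase that lets branched-chain fatty acids enter beta-oxidation, with 6236, 7005, 5799 and 6109.5 in transgenic mice, against 3965, 4543 and 5245 on the normal diet. Every transgenic value lay above every normal-diet value, as for 8.46% of all genes. The log2 difference was 0.46 ± 0.11 (SE; limma adjusted p = 0.0468). The call held under 6 of 18 alternatives, with a limma adjusted p up to 0.134 and a difference of 0.36 to 0.56. Wild-type high-fat mice had 5384, 5297.5, 5491 and 5072, all under the transgenic values, as for 4.32% of all genes. The wild-type high-fat values overlapped those on the normal diet. Amacr was highest on transgenic array 2 and lowest on array 3, the opposite of Ehhadh and Crot. Pecr, an enoyl-CoA reductase, was at -0.29 ± 0.12 (log2, SE; limma adjusted p = 0.324) for the transgenic comparison and 0.42 ± 0.13 (0.606) for diet. Catalase (Cat) was at -0.19 ± 0.089 (SE; 0.386) for the transgenic comparison, and Phyh, the hydroxylase of phytanic acid breakdown, at 0.16 ± 0.10 (SE; 0.807) for diet.

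Among 10 peroxins measured of 15 listed, the proteins that build peroxisomes, 0 passed in any comparison, and the medians were -0.023 for the transgenic comparison, 0.11 for diet and 0.056 against the normal diet. Pex7, the import receptor of the thiolases, was at -0.32 ± 0.11 (log2, SE; limma adjusted p = 0.238) for the transgenic comparison, and Pex26 and Pex2 were at 0.44 ± 0.22 (SE; 0.408) and -0.080 ± 0.094 (SE; 0.746). For diet, Pex3, Pex2 and Pex26 were at 0.30 ± 0.12, 0.18 ± 0.10 and 0.33 ± 0.24 (SE; limma adjusted p = 0.674, 0.799 and 0.838). Of 8 other microsomal omega oxidation enzymes measured (15 listed), 1 was lower in the transgenic comparison (0.139% of all genes were called lower) and 0 passed for diet, with medians of -0.26 and 0.18. The gene was Cyp4a12a, a male-biased relative of Cyp4a14, with 3489, 2400, 2888 and 6108 in transgenic mice, against 9037, 7416, 9221 and 9322 in wild-type high-fat mice (log2 difference -1.32 ± 0.23, SE; limma adjusted p = 0.0436). It passed under 11 of 19 alternatives, with an adjusted p of 0.0860 without an intensity trend and 0.134 without wild-type high-fat array 1, and the difference lay between -1.59 and -1.14. Against the normal diet, at 8944, 6741 and 7474, it was lower too, with a log2 difference of -1.14 ± 0.25 (SE; limma adjusted p = 0.0424), a call held under 8 of 18 alternatives (limma adjusted p up to 0.111). On transgenic array 3, where Cyp4a14 was highest, Cyp4a12a stayed low. Cyp4a31 was at 1.09 ± 0.54 (SE; 0.402) for the transgenic comparison and -1.46 ± 0.58 (SE; 0.674) for diet, from dim values. Cyp4f14, a leukotriene hydroxylase, was at -0.33 ± 0.17 (SE; 0.407) and 0.26 ± 0.18 (SE; 0.828), and Cyp4f15 at 0.27 ± 0.23 (SE; 0.878) for diet.

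Ppara itself was nearly level, with 4942, 4986, 5985 and 5304.5 in transgenic mice, 5174, 4845, 5413.5 and 5505 in wild-type high-fat mice, and 4527, 5191 and 4011 on the normal diet. Its log2 difference was 0.017 ± 0.10 (SE; limma adjusted p = 0.958) for the transgenic comparison and 0.20 ± 0.11 (SE; 0.777) for diet. Of the 16 genes measured for PPARA and its partners (21 listed), 0 passed in any comparison, and the medians were 0.12 for the transgenic comparison and 0.021 for diet. The coactivators Ppargc1a, Lpin1 and Lpin2 were at 0.82 ± 0.28, 1.25 ± 0.54 and 0.47 ± 0.26 (log2, SE; limma adjusted p = 0.228, 0.330 and 0.446) for the transgenic comparison. Ppargc1a had 218.9, 202.5, 247.7 and 225.3 in transgenic mice, against 128.4, 121.2, 103.1 and 156.7 in wild-type high-fat mice, without overlap. Of the 16 genes, 1 was higher without overlap in this comparison, against 4.32% of all genes. For diet, Lpin1 was at -1.06 ± 0.58 (SE; 0.777) and the deacetylase Sirt1 at -0.30 ± 0.15 (SE; 0.762).

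Of 23 known PPARA targets measured outside peroxisome and microsome (27 listed), 0 passed for the transgenic comparison and 0 for diet, and 1, the malic enzyme Me1, was lower in transgenic mice than on the normal diet (0.681% of all genes were called lower). The medians were 0.19 for the transgenic comparison and -0.11 for diet. Me1 had 996.1, 799.3, 854.6 and 662.1 in transgenic mice, 1288, 1269, 2363 and 2323 in wild-type high-fat mice, and 3179, 4293 and 5512 on the normal diet, and its difference between transgenic and normal-diet mice was -2.37 ± 0.26 (log2, SE; limma adjusted p = 0.00118), a call held under all 18 alternatives run. In the transgenic comparison, Me1 was at -1.08 ± 0.24, the redox regulator Txnip at 1.02 ± 0.27 and Angptl4, a lipoprotein lipase inhibitor, at 0.68 ± 0.19 (log2, SE; limma adjusted p = 0.0876, 0.131 and 0.155). For diet, Me1 was at -1.29 ± 0.26, Txnip at -1.26 ± 0.29 and the fatty acid transporter Cd36 at 1.91 ± 0.60 (log2, SE; limma adjusted p = 0.279, 0.365 and 0.606). Transgenic array 3 was the highest of its group for 21 of the 23 genes and array 2 the lowest for 13. Wild-type high-fat array 2 was the lowest of its group for 17. In the other lists, transgenic array 3 was the highest for 16 of 27 peroxisomal enzymes, 5 of 10 peroxins, 2 of 8 microsomal enzymes and 9 of 16 genes of PPARA and its partners. Transgenic array 2 was the lowest for 12, 3, 5 and 5 of them, in that order. Vnn1, a pantetheinase and known PPARA target, had 2042, 1430.4, 7525 and 4239 in transgenic mice, 1805, 412.7, 4249 and 3433 in wild-type high-fat mice, and 809.5, 3111 and 2190.2 on the normal diet. Its lowest mice within each group were also those of Cyp4a14. Vnn1 was picked after its values were seen.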

How the data were processed

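The deposited table holds linear intensity values (signal). The submitters' processing notes name MAS5 as the authors' tool, with its version not given in the sources used here. That method summarises and scales each array on its own. The intensity values came without detection calls here. A floor of 1 replaced 1386 smaller values before log2 was taken. Symbols came from the platform annotation, which gave 20380 probe sets with 1 symbol, 691 with several and 1555 with none. Controls and probe sets without 1 symbol were left out, as was the lowest 40% by mean log2 signal, and each of the 7924 remaining genes was read by its brightest probe set. The tests used limma (3.58.1, under R 4.3.3; lmFit, eBayes with an intensity trend, all 11 arrays, a mean per group, two-sided), adjusted by Benjamini-Hochberg over all genes at 0.05. Other probe sets of the genes were tested over 12527 probe sets with 1 symbol, and shared ones over 12974. Errors are moderated standard errors. The number of arrays limits the precision. The fit was tested on simulated data.

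Genes of interest and lists were chosen with earlier results of these data known. Named were all 9 genes, the 3 of smallest p per list for the transgenic comparison and for diet, and the 6 most alike by Pearson correlation. Others are named as picked later. Alternatives were quantile normalization, log2(signal + 32), no or a 60% filter, every probe set, other variance models, array weights, fewer groups, a replicate block and left-out arrays.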

Additional observations from a re-analysis of the deposited data

Results flagged for a closer look

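Each of the 15 probe sets was examined for a mouse far from the others in the transgenic and in the wild-type high-fat group, on the log2 scale, and 6 of 30 sets of 4 arrays held such a value. Chance gives about 1 in 20. For Cyp4a14, transgenic array 2 (248.2) and wild-type high-fat array 2 (1503.4) each lay far under the other 3 mice of their group. For the probe set shared by Cyp4a10 and Cyp4a31, transgenic array 2 (2380.3) did. Both Pex11a probe sets had wild-type high-fat array 2 far under the rest of its group, at 1278.4 and 617.6. For Acaa1a, the value of transgenic array 4 (634.9) at the brighter probe set lay far under the other 3. Probe sets of 1 gene, and genes read on the same arrays, are not independent of each other.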

How the results depend on the processing

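No alternative called any of the 8 genes in any of the 3 comparisons. Of 88 differences recomputed per comparison with other settings, 6 changed sign for transgenic against wild-type mice on the high-fat diet, 2 for diet and 2 when transgenic mice were set against the normal diet. Many of the 88 could not change sign. Another filter, other probe sets, no intensity trend or fewer groups leave each difference as it was. The replicate block left the transgenic differences unchanged, and leaving out transgenic arrays 3 and 4 left those for diet unchanged. For the transgenic comparison, Hsd17b4 was at -0.046 with quantile normalization, -0.067 with array weights and -0.23 without transgenic arrays 3 and 4. Cyp4a14 was at -0.11 with array weights and -1.40 without transgenic arrays 3 and 4, where Ehhadh was at -0.12. For diet, Acaa1b was at -0.0038 with quantile normalization and Pex11a at 0.032 with array weights. Against the normal diet, Hsd17b4 was at -0.0081 with quantile normalization and -0.18 without transgenic arrays 3 and 4. The cause of these changes was not tested.

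Leaving out 1 array at a time moved the transgenic difference of Cyp4a14 between -0.45 and 1.66, of Acot1 between -1.19 and 0.11, of Ehhadh between -0.073 and 0.52, of Hsd17b4 between -0.13 and 0.092 and of Acaa1a between -0.051 and 0.16. It moved the diet difference of Crot between -0.20 and 0.39, of Pex11a between -0.18 and 0.28 and of Hsd17b4 between -0.0027 and 0.16. Against the normal diet it moved Cyp4a14 between -1.24 and 0.87, Acaa1b between -0.15 and 0.090, Ehhadh between -0.47 and 0.12 and Hsd17b4 between -0.081 and 0.14.

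Counts over all genes depended more on the setting. For the transgenic comparison 29 genes passed, against 12 with no filter, 0 without an intensity trend, 58 with array weights, 8 with only the groups compared, 4 without transgenic arrays 3 and 4, and 0 to 64 with 1 array left out (0, 64, 1 and 6 without wild-type high-fat array 1, 2, 3 or 4, and 56, 6, 3 and 2 without transgenic array 1, 2, 3 or 4). For diet 0 passed, against 1 with array weights, 2 with the replicate block, 2 without transgenic arrays 3 and 4, and 0 to 2 with 1 array left out. Against the normal diet 165 passed, against 81 without trend, 104 with only the groups compared, 23 without transgenic arrays 3 and 4, and 36 to 162 with 1 array left out (48, 48 and 73 without normal-diet array 1, 2 or 3, and 162, 113, 96 and 36 without transgenic array 1, 2, 3 or 4). The labels do not say what the replicate numbers stand for. Deviations of same-numbered arrays correlated at 0.084 to 0.292 in the transgenic comparison and at -0.072 to 0.029 for diet. Differently numbered arrays were not correlated for reference, and whether the numbers mark a pairing or a batch was not tested. With the replicate block, Crot was at 0.46 in the transgenic comparison (limma adjusted p = 0.341), and 0 of the 8 genes passed. The fit over shared probe sets was chosen after seeing the data.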
